A study of Homo sapiens with 30 samples.

Results

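This is a comparison of nascent transcription in A549 cells given dexamethasone together with the PRMT5 inhibitor GSK591 for 3 h against cells given dexamethasone alone for 3 h. It rests on 4 of the study's 30 libraries, 2 in each group, and takes in all genes of the count table, of which 22919 had enough reads to be tested. A549 is an established human lung adenocarcinoma cell line. The assay was PRO-seq (precision run-on sequencing), in which polymerases engaged on DNA in permeabilized cells add labelled nucleotides, so that the reads come from RNA being made at that moment.

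Both groups received 100 nM dexamethasone (Dex), and the co-treated group also 1 uM GSK591 for the same 3 h; the vehicle was 0.01% DMSO. Other groups serve as references, each with 2 libraries: untreated cells (in the vehicle, and labelled with a time of 15 min, so that they are not matched in time to the 3 h groups), cells given 1 uM MS023 (which blocks the type I enzymes of arginine methylation) with 100 nM Dex for 3 h, cells given 1 uM GSK591 for 2 days without Dex, and cells given Dex for 3 h after 7 days of MS023, set against 7 days of MS023 alone. No group with GSK591 for 3 h in the absence of Dex was analysed here, so an action of GSK591 on the Dex response and an action of GSK591 by itself cannot be told apart. All libraries come from 1 cell line, and nothing in the labels says whether the 2 replicates of a group were separate cultures; p-values measure the spread between these libraries.

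Dexamethasone binds the glucocorticoid receptor, which then enters the nucleus, binds DNA at glucocorticoid response elements and raises or lowers transcription of nearby genes within minutes to hours. PRMT5, which works in a complex with WDR77, is the main enzyme for symmetric dimethylation of arginine; its substrates include Sm proteins of the spliceosome and histone tails. PRMT1 and the other type I enzymes make asymmetric dimethylarginine. An enzyme inhibitor acts on the protein and need not change transcription of the gene for its target, so the levels of PRMT5 are no check of the treatment.

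The 4 libraries held 8995811 to 12357798 counts, of which 69.2% to 74.7% fell on mitochondrial genes, leaving 2770494 to 3130738 nuclear counts each. Markers of lung epithelial cells were read in all 4 (11 of 11 genes, 1424 to 1511 in sum on the CPM scale, which corrects counts for library size), and markers of fibroblasts, endothelium and leukocytes summed to 1.91 to 3.17 CPM. CDKN2A, which A549 cells are known to have lost, had 0 counts in each of the 4. MTAP, its neighbour, was also listed as absent from A549 but had 77 to 103 counts, so it did not read as absent. Exons of MTAP overlap those of other genes on the same strand. Across the 10953 genes that averaged 5 CPM or more, log2 levels correlated at r = 0.972 within the Dex pair, 0.982 within the co-treated pair and 0.968 to 0.978 between the groups. These correlations are across genes, which are not independent replicates. The Dex libraries were no more alike, by this measure, than libraries of different treatments.

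The promoters of 2 genes are shown because these genes carry the comparison: SGK1 had the lowest p among glucocorticoid-induced genes for a difference between the treatments, and FKBP5 is a reference gene of the Dex response whose level was nearly equal in both. Each sequence runs 5′ to 3′ from 250 bases before to 30 bases after an annotated RefSeq gene start (GRCh38.p14, minus strand). Capitals mark the core hexamer of the glucocorticoid response element, TGTTCT or AGAACA on the other strand. It begins 5 bases after the start in SGK1 (chr6:134177832-134178111) and at the start in FKBP5 (chr6:35728554-35728833).
SGK1: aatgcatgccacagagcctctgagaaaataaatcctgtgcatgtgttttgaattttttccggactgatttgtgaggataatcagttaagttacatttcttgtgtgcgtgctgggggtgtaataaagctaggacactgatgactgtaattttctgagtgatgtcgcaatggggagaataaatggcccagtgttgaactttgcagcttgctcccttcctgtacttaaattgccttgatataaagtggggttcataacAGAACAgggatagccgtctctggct
FKBP5: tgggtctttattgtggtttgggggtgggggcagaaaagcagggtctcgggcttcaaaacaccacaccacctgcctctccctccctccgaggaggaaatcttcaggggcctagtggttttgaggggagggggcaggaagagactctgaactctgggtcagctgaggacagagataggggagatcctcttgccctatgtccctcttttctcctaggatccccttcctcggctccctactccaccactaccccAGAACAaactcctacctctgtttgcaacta
This hexamer occurs in 5192 of 35116 promoters of 300 bases (14.8%), and in promoters of 5 of the 27 glucocorticoid-induced genes that have an entry, BCL6, CIDEC, FKBP5, PDK4 and SGK1. For the 27 genes a match in any promoter entry of a gene counted, so genes and promoters are unlike units here. For SGK1 and FKBP5 only promoter entries that hold the hexamer are shown. A match is a description of letters and not of receptor binding.

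No gene differed between GSK591 with Dex and Dex alone at an adjusted p under 0.05. Of 22919 genes, 0 were called (0%) by the quasi-likelihood test of edgeR after Benjamini-Hochberg adjustment; the lowest adjusted p was 0.265. At an unadjusted p under 0.05 there were 1306 genes (5.7%), 594 higher (2.59%) and 712 lower (3.11%) with GSK591. DESeq2, run on all 58780 genes of the count table, gave 593 at that level and also called 0. Its count is over a larger set of genes than the 22919. The share was 6.74% among genes with at least 5 CPM (738 of 10953) and 5.96% among protein-coding genes (893 of 14978). The median log2 fold change over all genes was 0.003. The count of 0 held under 3 scalings, with a replicate term and without each of the 4 libraries in turn, but 2 genes were called with no filter on low counts and 16 when only these 4 libraries were fitted.

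How small a change the data could have missed is given by the intervals of the fold changes. The 95% interval lay wholly between -1 and 1 on the log2 scale for 13927 of the 22919 genes and for 10601 of the 10953 genes with at least 5 CPM. It lay between -0.5 and 0.5 for 5479 of the 10953. For the well-read genes a change of 2-fold or more in either direction was thus outside the interval in most cases. For about as many of these genes as not, the interval reached beyond 0.5 on at least one side. The intervals are not adjusted for the number of genes tested.

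The central glucocorticoid-induced genes were transcribed at like levels with and without GSK591. FKBP5, a co-chaperone that lowers receptor sensitivity, stood at 40.5 and 40.1 CPM in the Dex libraries, at 43.4 and 41.0 with GSK591 and at 5.56 and 5.24 in untreated cells. Dex raised it by 2.90 on the log2 scale and Dex with GSK591 by 2.96, and the difference between the treatments was 0.07 ± 0.21 (SE; 95% interval -0.37 to 0.50). TSC22D3, which encodes the anti-inflammatory protein GILZ, read 114 and 112 CPM with Dex and 117 and 124 with GSK591, against 13.5 and 16.9 untreated. All 4 Dex-treated libraries of both genes lay far above the untreated ones and close to each other. The difference for TSC22D3 was 0.10 ± 0.11 (-0.14 to 0.33). DUSP1, the phosphatase that switches off MAP kinases, read 527 and 517 CPM with Dex and 512 and 574 with GSK591, a log2 difference of 0.06 (-0.16 to 0.27).

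SGK1, PER1 and ZFP36 stood higher in both co-treated libraries at an unadjusted p under 0.01 and did not pass the adjustment. SGK1, a kinase that raises sodium channel activity, read 56.4 and 58.0 CPM with Dex and 71.4 and 84.3 with GSK591, against 24.1 and 28.2 untreated. Its groups do not overlap, and the log2 difference was 0.44 ± 0.11 (unadjusted p = 0.00033, adjusted p = 0.764). PER1, a component of the circadian clock, read 44.6 and 40.3 CPM with Dex and 47.9 and 61.6 with GSK591. The co-treated libraries were again the higher ones, and the difference was 0.36 ± 0.13 (unadjusted p = 0.0059, adjusted p = 0.821); exons of PER1 overlap those of 2 genes on its strand. ZFP36, which destabilizes cytokine mRNAs, read 232 and 217 CPM with Dex and 284 and 265 with GSK591. Its difference was 0.29 (unadjusted p = 0.009), and that of RGS2, a brake on G-protein signalling, was 0.26 (unadjusted p = 0.046), with adjusted p above the threshold for both. MS023 with Dex, at the same dose and time, gave SGK1 levels of 80.6 and 67.6 CPM, which overlap those of the GSK591 libraries. SGK1 was named for its difference from the same Dex libraries, so the MS023 levels are no separate evidence of that difference.

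Over the list of 32 glucocorticoid-induced genes, all of which were tested, 18 had a fold change above 0 and 14 below, and the median was 0.04, next to 0.003 for all genes. None of the 32 was called, 4 were higher at an unadjusted p under 0.05 (SGK1, PER1, ZFP36 and RGS2) and 0 were lower, which is 12.5% next to 5.7% of all genes. Against untreated cells, 28 of the 32 were called higher with Dex (6.11% of all genes) and 29 with GSK591 and Dex (7.02%), with median log2 fold changes of 1.29 and 1.37; these 2 comparisons share the untreated libraries. The range ran from CIDEC, a lipid droplet protein (4.99 and 4.89), to CRISPLD2 (-0.16 and -0.44), which was called in neither. SLC19A2, a thiamine transporter, had the lowest difference among members with at least 5 CPM, at -0.24 ± 0.17 (14.9 and 16.0 CPM against 11.9 and 14.1).

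**Figure D1:**
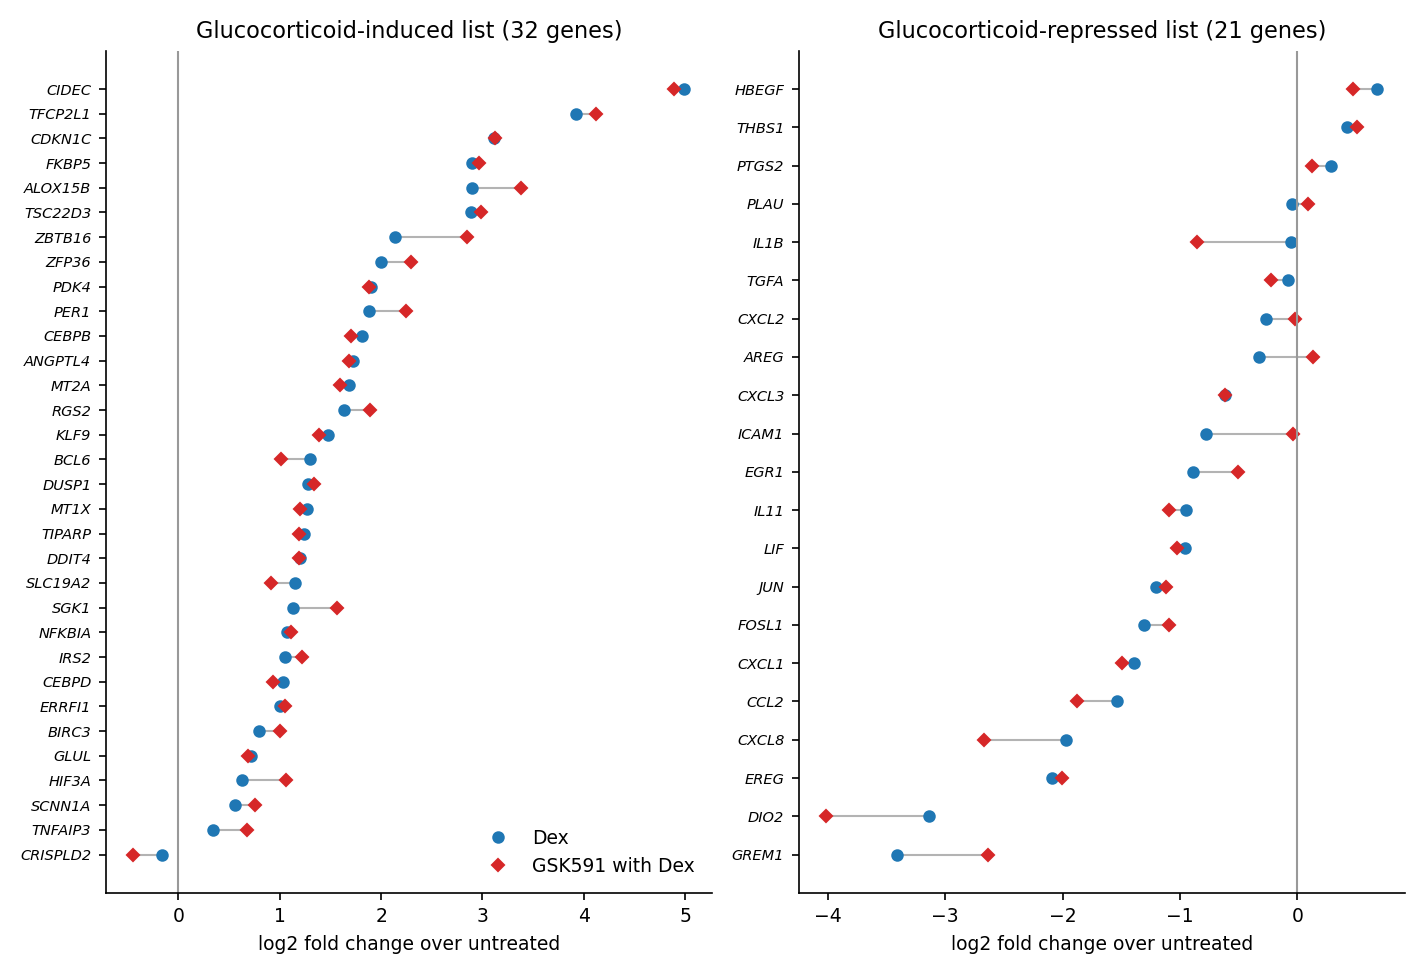
Log2 fold change over untreated cells (x axis) for each tested gene of the glucocorticoid-induced list (left, 32 genes) and the glucocorticoid-repressed list (right, 21 genes); circles are Dex alone and diamonds GSK591 with Dex, joined by a line, and both use the same 2 untreated libraries. The paired symbols lie close together for FKBP5 (2.90 and 2.96) and TSC22D3 (2.89 and 2.98), and SGK1 lies further right with GSK591 (1.13 and 1.57).

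Among genes that glucocorticoids are known to repress, no difference between the treatments was called. Of 24 listed, 21 were tested; IL6, IL1A and MMP1 had too few reads. The median difference was -0.003, with 10 above 0 and 11 below, 0 called and 1 lower at an unadjusted p under 0.05. Single members ran from -0.88 to 0.77, and the 95% interval lay between -1 and 1 for 13 of the 21 and between -0.5 and 0.5 for 4, so near-equal levels were not shown for most. Against untreated cells 10 of the 21 were called lower with Dex (4.41% of all genes) and 11 with GSK591 and Dex (4.86%), while 2 were called higher with Dex (6.11%) and 1 with GSK591 and Dex (7.02%). The members called higher were HBEGF, a growth factor of the EGF family (0.68 with Dex, adjusted p = 0.0216; 0.48 with GSK591 and Dex, adjusted p = 0.132, by edgeR), and THBS1, the matrix protein thrombospondin (0.43 and 0.51, called in both). HBEGF also had the lowest difference between the treatments among members with at least 5 CPM, -0.20 ± 0.20, with 11.8 and 13.2 CPM with Dex, 9.90 and 11.8 with GSK591 and 7.90 and 7.66 untreated. CXCL2, a neutrophil-attracting chemokine, had the highest, 0.24 ± 0.16, with 13.4 and 15.3 CPM with Dex, 16.2 and 17.6 with GSK591 and 16.3 and 17.9 untreated; it was called in neither comparison with untreated cells. JUN, FOSL1, THBS1 and DIO2 are described in addition, chosen after their values were seen. JUN, a subunit of AP-1, read 23.4 and 23.1 CPM with Dex and 23.7 and 25.8 with GSK591, against 49.9 and 57.3 untreated. FOSL1, another AP-1 subunit, read 11.2 and 10.6 CPM with Dex and 12.7 and 12.6 with GSK591, against 27.6 and 26.3. In both genes all 4 Dex-treated libraries lay below the untreated ones, unlike in HBEGF. DIO2, a deiodinase that activates thyroid hormone, was the one member with an unadjusted p under 0.05: 1.17 and 2.32 CPM with Dex, 1.12 and 0.728 with GSK591, and 14.5 and 15.8 untreated. At such levels the interval was wide, from -1.73 to -0.03.

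The same question was put to a wider set of Dex-responsive genes, taken from libraries that neither group uses: those called between Dex for 3 h after 7 days of MS023 and 7 days of MS023 alone. Of the 1310 genes called higher there (5.72%), 779 had a fold change above 0 with GSK591 (59.5%, next to 50.5% of all genes), and the median was 0.04. Over the 1233 called lower (5.38%), the median was 0.02. At an unadjusted p under 0.05 stood 58 higher and 28 lower of the 1310 (6.56%) and 91 of the 1233 (7.38%), next to 5.7% of all genes. Median fold changes over untreated cells were 0.68 with Dex and 0.76 with GSK591 and Dex for the first class, and -0.53 and -0.51 for the second.

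**Figure D2:**
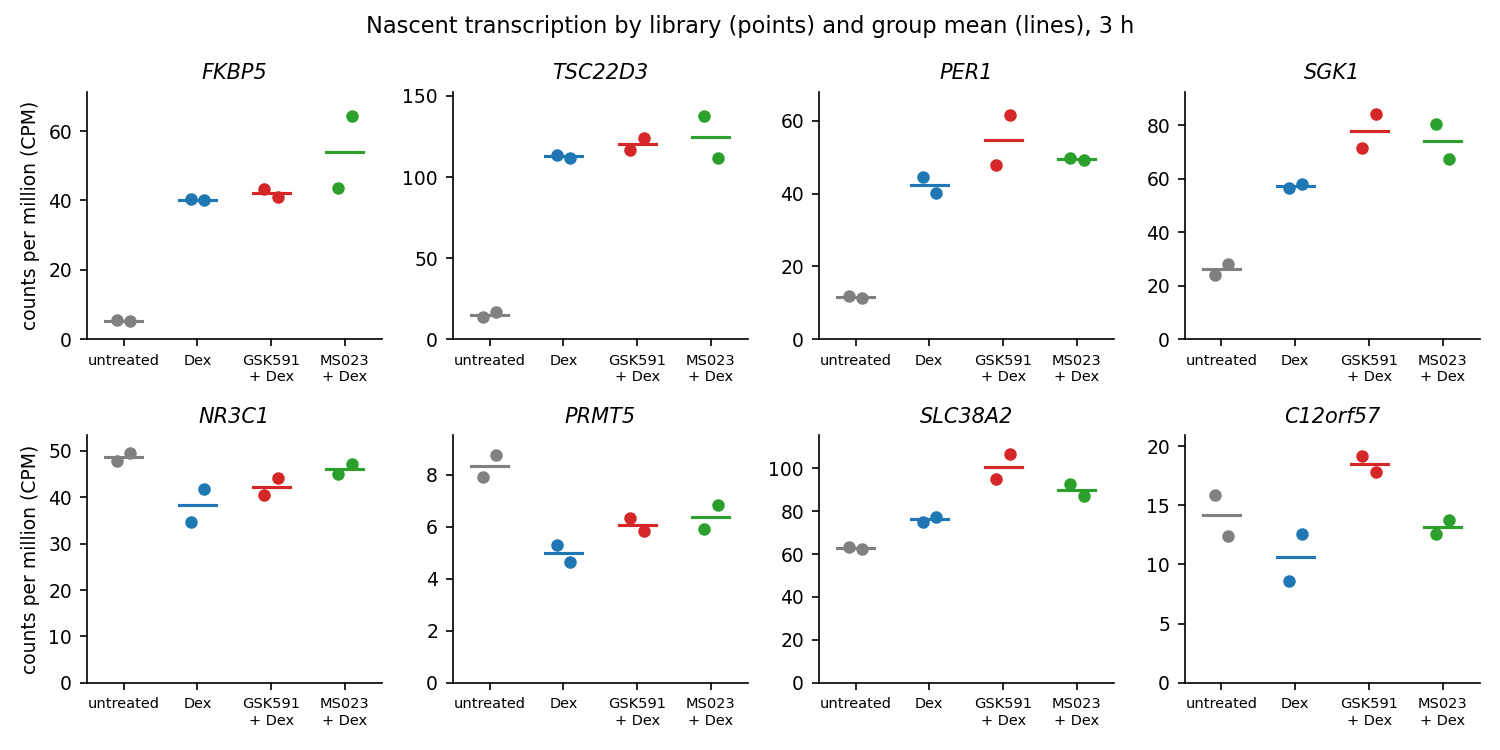
Transcription in CPM (y axes, each from 0) of 8 genes in untreated cells, Dex, GSK591 with Dex and MS023 with Dex; points are the 2 libraries of a group and lines their mean. FKBP5 lies at 40.1 to 43.4 CPM in the Dex and GSK591 with Dex libraries and at 5.24 to 5.56 in untreated cells, while SGK1 lies at 56.4 to 58.0 with Dex and 71.4 to 84.3 with GSK591.

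Transcription of the drug's target, its partners and the receptor was also compared. PRMT5 read 5.31 and 4.64 CPM with Dex, 6.33 and 5.82 with GSK591 and 7.90 and 8.77 in untreated cells. The co-treated libraries lay between the others, and the difference from Dex was 0.28 (-0.16 to 0.72). WDR77, the PRMT5 partner that binds substrates, read 2.13 and 2.44 CPM with Dex and 1.84 and 3.02 with GSK591, with overlapping groups. NR3C1, the gene for the glucocorticoid receptor, read 34.8 and 41.8 CPM with Dex and 40.5 and 44.1 with GSK591, a difference of 0.15 (-0.08 to 0.38), and 47.8 and 49.6 untreated. Of the 7 PRMT5 partners and 13 receptor and chaperone genes, 0 had an unadjusted p under 0.05, and none of the 19 receptor coregulators did either.

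Among the 7 tested arginine methyltransferase genes, 0 were called, and PRMT1 and PRMT7 had unadjusted p under 0.05 in opposite directions. These are 2 of 7 genes (28.6%), next to 5.7% of all genes. PRMT1, the main type I enzyme, read 30.4 and 34.9 CPM with Dex, 42.5 and 37.7 with GSK591 and 56.2 and 55.8 untreated. Its co-treated libraries were both above the Dex libraries and below the untreated ones, and the difference from Dex was 0.30 ± 0.11 (unadjusted p = 0.012, adjusted p = 0.845). PRMT7, which makes monomethylarginine, differed by -0.31 ± 0.15 (unadjusted p = 0.039, adjusted p = 0.859).

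Lists for processes known to respond to PRMT5 loss held 0 called genes as well. At an unadjusted p under 0.05 stood 2 of 22 splicing factors (9.09%), 1 of 22 Sm, LSm and snRNP assembly genes (4.55%) and 2 of 14 histone genes (14.3%). The share of all genes was 5.7%. Of 22 SR and hnRNP splicing factors, 17 had a fold change above 0, with a median of 0.09; among members with at least 5 CPM, SRSF3, an SR protein of exon recognition, was the highest at 0.25 ± 0.11 and TAF15 the lowest at -0.07 ± 0.25. Of 22 Sm, LSm and snRNP assembly genes, 14 lay below 0, with a median of -0.06; SNRPG, a core Sm protein, read 16.8 and 16.5 CPM with Dex and 12.6 and 13.4 with GSK591 (difference -0.36, adjusted p = 0.845). Of 14 tested histone genes, 13 lay above 0, with a median of 0.13, and H2BC21 was the highest at 0.37 ± 0.13 (106 and 77.4 CPM against 117 and 120; adjusted p = 0.825). Histone copies are near-identical, so their reads may be shared among them. MS023 with Dex gave 71.6 and 66.0 CPM for SRSF3, 12.2 and 11.9 for SNRPG and 126 and 107 for H2BC21. With total counts as the only scaling, the median of all genes moved to 0.118 and the splicing factor and histone medians to 0.21 and 0.25; the Sm and LSm median then lay above 0, at 0.06.

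In the 8 remaining lists 0 genes were called, and the share at an unadjusted p under 0.05 ran from 0% to 10% (S-phase genes), next to 5.7% of all genes. At an unadjusted p under 0.05 stood 1 of 24 p53 targets (SESN1, a stress sensor that restrains mTORC1, -0.48 ± 0.17), 3 of 30 S-phase genes (SLBP, the histone mRNA binding protein, -0.54 ± 0.17; UHRF1, -0.31; FEN1, 0.24), 1 of 24 mitosis genes (TTK, a spindle checkpoint kinase, -0.70) and 1 of 20 ribosome biogenesis genes (POLR1B, a subunit of RNA polymerase I, -0.32 ± 0.15). UHRF1, FEN1 and TTK were named for passing this level. None of 22 polymerase pausing and elongation genes, 23 immediate early genes, 29 interferon-stimulated genes or 20 stress response genes did. Their highest and lowest members with at least 5 CPM spanned HEXIM2, an inhibitor of P-TEFb, at 0.29 and NELFB, a subunit of the pausing factor NELF, at -0.15; CCN2 at 0.22 and JUND at -0.15; IRF7 at 0.26 and IRF1 at -0.17; and TXNRD1 at 0.21 and SRXN1 at -0.36.

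The 16 genes with the lowest unadjusted p among those with at least 5 CPM and non-overlapping groups, 8 in each direction, are a ranked description, since none was called. For scale, groups did not overlap in 4171 genes with higher levels (18.2%) and 4143 with lower levels (18.1%). C12orf57, a gene mutated in a syndrome of brain malformation, read 8.61 and 12.6 CPM with Dex, 19.2 and 17.8 with GSK591 and 15.9 and 12.4 untreated. Both co-treated libraries were above all others of the 3 groups, and the difference was 0.81 ± 0.17 (adjusted p = 0.265); its exons overlap a gene on each strand. IER3-AS1, antisense to the early response gene IER3, read 8.40 and 6.96 CPM with Dex and 12.8 and 13.1 with GSK591, against 19.4 and 17.8 untreated. Its co-treated libraries thus lay between the Dex and the untreated levels, with a difference of 0.75 ± 0.16. Its exons overlap a gene on the other strand, and whether reads were counted by strand is not given in the sources used here, so these reads cannot be told apart from those of that gene.

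MRPL48, a protein of the mitochondrial ribosome, read 4.78 and 5.13 CPM with Dex and 9.29 and 9.15 with GSK591, a difference of 0.90 ± 0.20. SLC38A2, a sodium-coupled neutral amino acid transporter, read 75.0 and 77.3 CPM with Dex, 94.8 and 107 with GSK591, 63.5 and 62.4 untreated and 93.3 and 89.9 after 2 days of GSK591. The co-treated libraries were the highest of these groups, and the difference was 0.40 ± 0.11. MS023 with Dex gave 92.8 and 86.9 CPM, also above both Dex libraries. SLC38A2 was chosen against these same Dex libraries, so the MS023 levels are no separate evidence. GSK591 minus MS023 was 0.16 (95% interval -0.05 to 0.38). AC025031.2, a transcript that overlaps the start region of SLC38A2 on the opposite strand, differed by 0.87 ± 0.25 (9.14 and 10.3 CPM against 14.8 and 20.5). With MS023 and Dex it read 17.8 and 13.6 CPM. It was named after its values were seen. No exon of it overlaps another gene's exon, but whether whole genes or exons were counted, and by strand or not, is not given, so reads of the pair cannot be told apart. The other higher genes were NUTM2E (1.01), SH3GL1P1 (0.87) and RPL10 (0.41), all of which have near-identical relatives or pseudogenes.

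On the lower side, NARS2, the mitochondrial asparaginyl-tRNA synthetase, read 18.5 and 18.2 CPM with Dex, 10.7 and 12.2 with GSK591 and 17.7 and 17.6 untreated. The co-treated libraries lay below both other groups, with a difference from Dex of -0.68 ± 0.17 (adjusted p = 0.764). MS023 with Dex gave like levels, 13.5 and 12.2 CPM, and GSK591 minus MS023 was -0.16 (95% interval -0.52 to 0.19). Exons of NARS2 overlap a gene on the other strand. CDC37L1, a co-chaperone of HSP90, read 24.6 and 22.8 CPM with Dex, 15.2 and 16.2 with GSK591 and 12.8 and 15.3 untreated. It was thus near the untreated level in the co-treated cells, with a difference of -0.59 ± 0.15 (adjusted p = 0.764), and MS023 with Dex stood there too, at 16.5 and 13.4 CPM. Both genes were chosen against the same Dex libraries, so the MS023 levels are no separate evidence of a difference from Dex. The others were MIR4479 (-1.03), CPNE3 (-0.96), C16orf91 (-0.71), MMAA (-0.69), DPY19L1 (-0.56) and WASH5P (-0.41).

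**Figure D3:**
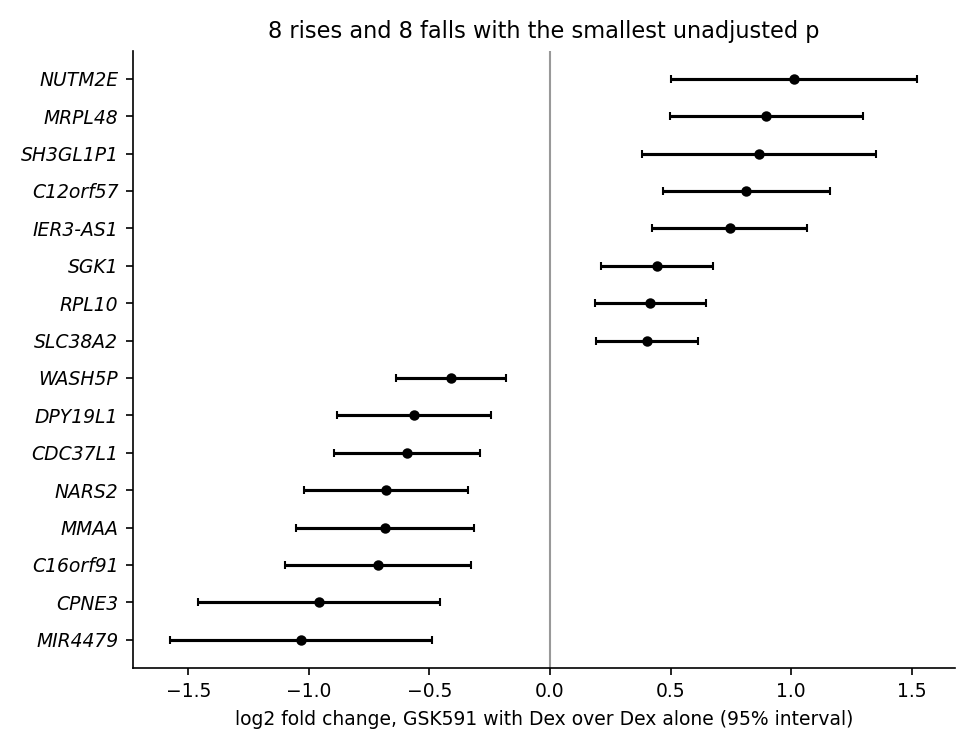
Log2 fold change of GSK591 with Dex over Dex alone (x axis, points) with its 95% interval (bars) for the 8 higher and 8 lower genes with the smallest unadjusted p. The intervals of all 16 exclude 0 because they were chosen by p, and none has an adjusted p under 0.05; the values run from -1.03 for MIR4479 to 1.01 for NUTM2E.

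When only the 4 libraries were fitted, 16 genes were called, 2 higher (C12orf57 and AC025031.2, which were also the 2 genes called with no filter) and 14 lower. Of the 14, 12 lie on chromosome 21 between 8208473 and 8987430 (GRCh38), in and around the ribosomal RNA gene repeats, and 8 of them inside a RefSeq 45S pre-ribosomal RNA gene. They were MIR3648 and MIR3687 copies, which lie in the spacer upstream of 18S rRNA, 5.8S rRNA copies and 4 noncoding transcripts. The 4 transcripts are annotated on the minus strand, and the 5.8S, MIR3648 and MIR3687 copies on the plus strand. Whether reads were counted by strand is not given, so reads of the 4 cannot be told apart from reads of the other strand. MIR663AHG and KLF15 made up the rest of the 14. MIR3687-2 read 833 and 814 CPM with Dex and 296 and 295 with GSK591, against 720 and 534 untreated. FP236383.2 read 9876 and 12271 CPM with Dex, 6580 and 5616 with GSK591 and 9736 and 9566 untreated. In all 12 both co-treated libraries lay below both Dex libraries, with log2 differences from -1.74 to -0.70. The same order was seen in 4143 of all genes (18.1%). The 12 were selected by a call in these same 4 libraries, so their order is no separate evidence.

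Copies of the repeat are near-identical, so the 12 are not independent, and how reads were split among them is not known. Their levels also differed widely across the study: MIR3687-2 ran from 152 to 1446 CPM over the 30 libraries, with a median of 376, and with the spread of all 30 libraries its adjusted p was 0.764 for a difference of -1.48 ± 0.40. MS023 with Dex gave 355 and 261 CPM for this gene, below all Dex and untreated libraries, as in 6 of the 12. It did not in the other 6: MIR3648-2 read 289 and 241 CPM with MS023 against 302 and 217 untreated, and FP236383.2 read 5010 and 11899 with MS023. The 12 were chosen against the same Dex libraries, so the MS023 levels beside them are no separate evidence. Reads on annotated nuclear ribosomal RNA genes were 0.341% and 0.377% of all counts, mitochondrial ones included, with Dex and 0.229% and 0.253% with GSK591. The part of library preparation in this was not tested. KLF15, a glucocorticoid-induced factor in liver and muscle, read 34.3 and 48.1 CPM with Dex, 22.9 and 27.4 with GSK591 and 26.8 and 28.8 untreated (difference -0.71 ± 0.28, adjusted p = 0.845 over all libraries). These genes were named after their values were seen.

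**Figure D4:**
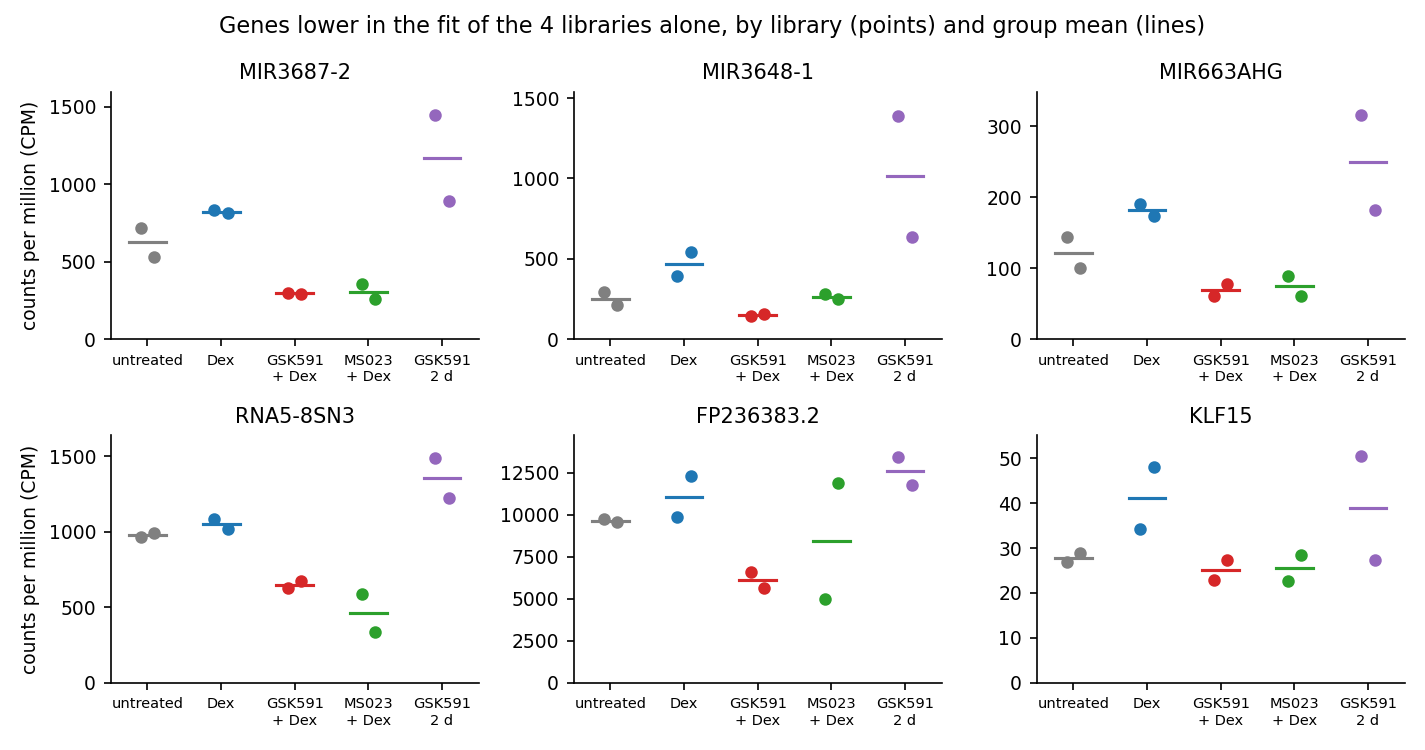
Transcription in CPM (y axes, each from 0) of 6 of the 14 genes called lower when only the 4 libraries were fitted, in 5 groups; points are libraries and lines their mean. For MIR3687-2 the GSK591 with Dex libraries (296 and 295) lie below the Dex libraries (833 and 814), and the 2 libraries after 2 days of GSK591 lie far apart (1446 and 893).

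GSK591 and MS023 could be compared directly, since both were given at 1 uM with Dex for 3 h. This was the 1 pair of compounds compared. Of 22919 genes, 11 were called (0.048%), 4 higher with GSK591 (ZSWIM1, AL034417.3, AL163051.1 and ZNF862; 0.0175%) and 7 lower (0.0305%: CSGALNACT1, MREG, PALLD, SMS, CDV3, BPNT2 and GNAQ), by edgeR's test with Benjamini-Hochberg adjustment. They are named because they are all of the calls, outside the rule for named genes. CSGALNACT1, which starts chondroitin sulfate chains, read 8.58 and 7.91 CPM with GSK591, 14.7 and 17.7 with MS023 and 9.89 and 12.8 with Dex alone, a log2 difference between the inhibitors of -0.98 ± 0.17 (adjusted p = 0.0111). ZSWIM1 read 10.9 and 9.46 CPM with GSK591, 5.36 and 4.99 with MS023 and 9.25 and 8.79 with Dex alone (0.98 ± 0.20, adjusted p = 0.0465). In the first gene GSK591 gave the lower pair and in the second MS023 did.

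The count of 11 rests on single libraries. It was 0 without either GSK591 library, 0 without MS023 replicate 2 and 2224 without MS023 replicate 1. MS023 replicate 2 stood apart from the others: 61.0% of its counts were mitochondrial and 1.80% of its nuclear counts fell on processed pseudogenes, against 1.12% to 1.25% in the 4 libraries of the main comparison. No difference between the inhibitors was called for PRMT5, WDR77, NR3C1, FKBP5, TSC22D3, PER1 or SGK1. For the Dex-induced ones of these the differences, with their intervals, were PER1 0.14 (-0.11 to 0.39), FKBP5 -0.36 (-0.78 to 0.07), TSC22D3 -0.05 (-0.28 to 0.18) and SGK1 0.07 (-0.16 to 0.30) on the log2 scale.

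The 3 h effect was then set against that of 2 days of GSK591, which was measured without Dex, so time and Dex cannot be told apart in this contrast. At 2 days, 1292 genes were called (5.64%), 731 higher (3.19%) and 561 lower (2.45%). Over the 731 the median at 3 h was -0.03 and over the 561 it was 0.01, and 0 of either was called at 3 h. Across the 10953 genes with at least 5 CPM, the fold changes at 3 h and at 2 days, which share no library, correlated at r = -0.11 (Spearman's rho -0.09). This is a description across genes of shared cells and annotation.

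The difference between the 2 effects was itself tested, as (GSK591 with Dex minus Dex) minus (GSK591 2 days minus untreated). It was called for 376 genes (1.64%), 139 with a higher value at 3 h (0.606%) and 237 with a lower one (1.03%). Of the 376, 320 were also called at 2 days, 207 higher and 113 lower there. Since no gene was called at 3 h, a larger change at 2 days than at 3 h is to be found in most of these 320 by how they were selected. Leaving out 1 library at a time gave 94 (without untreated replicate 1) to 255 (without Dex replicate 1) genes, and every removal other than Dex replicate 1 lowered the count by over 1.5 times: 120 and 175 without GSK591 with Dex replicates 1 and 2, 115 without Dex replicate 2, 106 and 150 without 2-day replicates 1 and 2, and 152 without untreated replicate 2.

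The genes named next were among the 12 with the lowest p for this difference and were chosen after the values were seen. FGA, the fibrinogen alpha chain, read 2.45 and 2.42 CPM untreated, 10.2 and 9.88 at 2 days, 8.93 and 7.69 with Dex and 8.17 and 7.39 with GSK591 and Dex. It rose by 2.04 at 2 days, the 3 h value was -0.10, and the difference between them was -2.14 ± 0.30 (SE; edgeR adjusted p = 2.50e-05). CEBPB, a transcription factor of the acute phase response, rose by 1.16 at 2 days against -0.11 at 3 h. GDF15, a stress-induced cytokine, rose by 0.96 at 2 days against -0.12, and AURKB, the mitotic kinase, fell by 0.98 at 2 days against 0.10. HNRNPA1, a splicing repressor, fell by 0.61 at 2 days against 0.22, and PRMT1 fell by 0.65 at 2 days against 0.30. FGA and CEBPB were also raised by Dex alone, by 1.77 and 1.81. CDC37L1 was higher at 2 days by 0.84 and lower at 3 h by 0.59 without passing the test there.

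**Figure D5:**
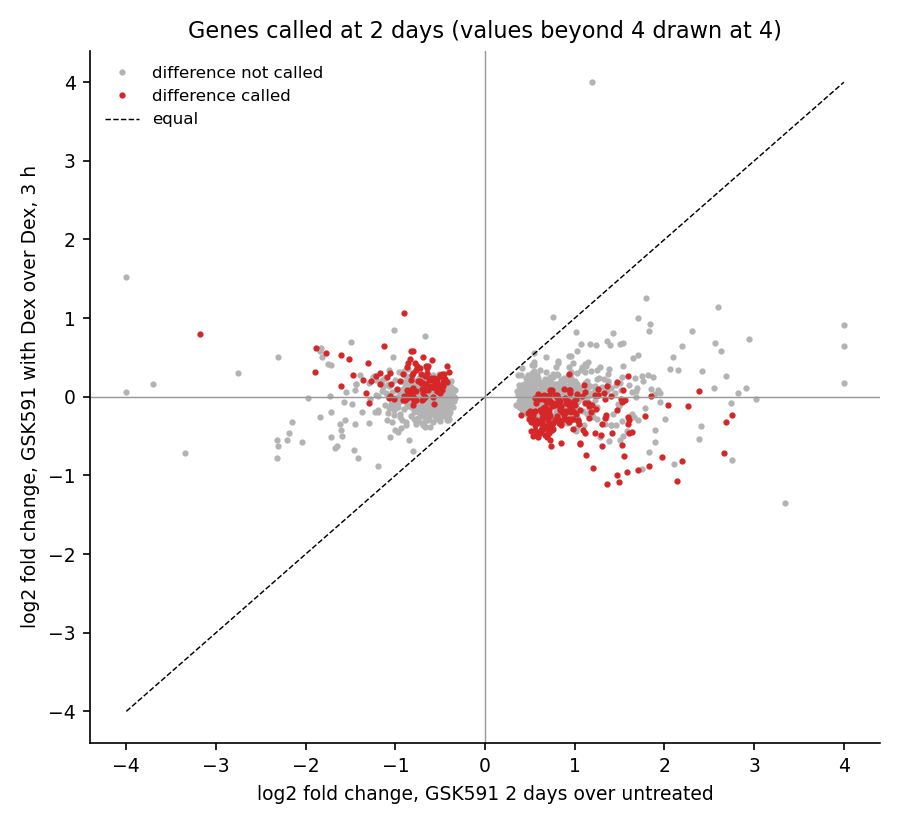
Log2 fold change at 2 days of GSK591 over untreated (x axis) against GSK591 with Dex over Dex at 3 h (y axis) for the 1292 genes called at 2 days; red points are the 320 whose 2 changes differed by test, values beyond 4 are drawn at 4, and the dashed line marks equal change. The points lie along the horizontal line near 0 (medians of -0.03 and 0.01 at 3 h) and not along the dashed line.

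The authors' deposited tables compare each treatment with untreated cells, and their values can be read side by side; both share the untreated libraries. In the authors' deposited tables FKBP5 stood at a log2 fold change of 4.12 with Dex and 4.20 with GSK591 and Dex, and TSC22D3 at 3.28 and 3.31. The authors' deposited tables gave 2.41 and 2.60 for PER1, 1.41 and 1.75 for SGK1, and 0.39 and 0.84 for SLC38A2. For NARS2, which was lower with GSK591 in the count table, the authors' deposited tables gave -0.03 in both, and for CDC37L1 they gave -0.02 and 0.31, the opposite order. The authors' deposited tables also gave 0.31 and 0.16 for NUTM2E, -0.26 and -0.23 for MRPL48 and -0.70 and -0.60 for DPY19L1, whose treatments differed by 1.01, 0.90 and -0.56 in the count table. For NR3C1 the authors' deposited tables gave -0.95 and -0.86, where the count table gave -0.35 and -0.20. Those tables may rest on another counting of the reads than the count table. How reads were assigned to genes for those tables is not given in the sources used here.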

How the data were processed

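Precision run-on sequencing libraries of A549 cells were counted by the authors with featureCounts 2.0.1 (Subread) on hg38, per the submitters' processing notes; the deposited table holds whole-number counts for 58780 GENCODE 29 genes in 30 libraries, all of whose identifiers matched. The aligner, strand setting and feature type used in counting are not given in the sources used here. The authors' deposited tables against untreated cells give a mean normalized signal, log2 fold changes with standard errors and p-values, from DESeq2 per the file headers; only log2 fold changes were printed.

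All 30 libraries in 15 groups were fitted with edgeR 4.0.16 (R 4.3.3; TMM scaling, filterByExpr with a minimum count of 10, robust quasi-likelihood test, 15 residual degrees of freedom), and p-values were adjusted by Benjamini-Hochberg over 22919 genes at 0.05. CPM are TMM-scaled; intervals are 95%. DESeq2 1.42.0 was an alternative. The fit of all groups was checked on simulated data. With 2770494 to 3130738 nuclear counts a library in the main comparison, low genes have wide intervals; intervals cover the spread of these libraries only. Replicates differed beyond sampling noise (chi-square per degree of freedom 14.3 within Dex and 3.16 within GSK591 with Dex), so each counted as 1 sample.

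Named genes were 6 reference genes (PRMT5, WDR77, NR3C1, FKBP5, TSC22D3 and PER1), the 8 higher and 8 lower genes with the smallest unadjusted p among those with a mean of at least 5 CPM and non-overlapping groups, and the highest and lowest such member of each list. The members and lists were chosen with earlier results of these data known. Promoters came from RefSeq (GRCh38.p14).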

Additional observations from a re-analysis of the deposited data

Results flagged for a closer look

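The effect of GSK591 at 3 h with Dex differed by an interaction test from its effect at 2 days without Dex in 376 genes. Among the genes named by rule, the difference (3 h minus 2 days, log2) was -1.44 for CDC37L1, -1.79 for MIR4479, -0.74 for WASH5P, 0.95 for PRMT1, 1.17 for C12orf57, 0.83 for PER1, 0.72 for H2BC21 and 0.65 for RPL10. Of these 8, CDC37L1 and PRMT1 were also called at 2 days (0.84 and -0.65), and none was called at 3 h. All but PER1 were named for the size or the p of their 3 h fold change, which is part of this difference. Their differences may thus be enlarged by how they were selected. Time and the presence of Dex differ together between the 2 effects and cannot be told apart.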

How the results depend on the processing

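The count of 0 genes for GSK591 with Dex against Dex alone became 2 with no filter on low counts and 16 in the fit of only the groups compared; it stayed at 0 in the other 5 settings and in the 4 removals of a library (range 0 to 0). For GSK591 against MS023 with Dex the 11 genes became 0 with total counts as the only scaling, 395 with no filter, 1 with DESeq2, 0 in the fit of only the groups compared, and 0 to 2224 when 1 library was left out. The 376 genes whose 3 h and 2-day effects differed became 11 with total counts, 166 with DESeq2, 859 in the fit of only the groups compared, and 94 to 255 when 1 library was left out. With total counts the class medians moved to 0.15 and 0.13 (Dex-responsive, higher and lower) and to 0.086 and 0.13 (2-day genes, higher and lower), beside a median of 0.118 over all genes; without 1 library they ranged from 0.02 to 0.07, -0.02 to 0.03, -0.074 to -0.0061 and -0.002 to 0.03. The cause of these moves was not tested. No named gene that changed sign had been called: with total counts TAF15 was 0.069 and H4C3 0.015, and without 1 library WDR77 ranged from -0.31 to 0.40, TAF15 from -0.37 to 0.32, CCNE2 from -0.011 to 0.55, CDCA8 from -0.45 to 0.10 and IRF1 from -0.47 to 0.083.

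Nothing in the labels says whether same-numbered libraries of different groups belong together. Deviations from the group means correlated at 0.06 for the 2 groups compared. Over all 105 pairs of groups the correlation ran from -0.44 to 0.49, and it was over 0.1 in 20 of them. With the replicate number as a block, 0 genes were called for GSK591 with Dex against Dex, 42 against MS023 with Dex and 428 for the difference between 3 h and 2 days.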

Other observations

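Small nuclear RNA genes, a class picked after its values were seen, held 16 of 62 tested genes with an unadjusted p under 0.05 (25.8%, next to 5.7% of all genes), 15 of them lower with GSK591 and Dex than with Dex, and 0 called. Their median log2 fold change was -0.26 (-0.15 with total counts as the only scaling, and -0.32 to -0.22 when 1 library was left out). Between libraries of the same treatment the median level of the class had a standard deviation of 0.24 on the log2 scale. The difference is thus about as large as the spread between replicates. RNU1-1, a copy of U1 snRNA, which recognizes the 5′ splice site, had 321 and 349 counts with Dex and 269 and 282 with GSK591. RNU2-1, a copy of U2 snRNA, which pairs with the branch point, had 301 and 252 counts with Dex and 204 and 249 with GSK591. The co-treated libraries were the lower ones for both genes. For RNU1-4, another U1 copy, the Dex libraries lay far apart, at 85 and 145 counts, with 67 and 70 counts with GSK591. Genes of U4 and U5 snRNA with fewer counts went both ways. Their log2 differences were 0.08 for RNU4-1, -0.05 for RNU4-2, 0.04 for RNU5A-1, 0.37 for RNU5B-1 and -0.91 for RNU5F-1. Against untreated cells the class median was 0.32 with Dex and 0.01 with GSK591 and Dex, and after 2 days of GSK591 without Dex it was 0.54, with 17 of the 62 called higher. Many of these genes are near-identical copies, so their reads may be shared and the 62 are not independent.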
